A study of Mus musculus with 6 samples.

Results

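The actin, myosin and contractile genes described here were 44 genes, taken by their symbols out of the 55401 genes in the deposited table of an RNA-seq study of mouse chondrocytes, the cells of cartilage. The rule used gene symbols and no measured value. The genes were grouped by role into actins (4 genes), myosin and its kinase (6), thin filament binders (11), crosslinkers and scaffolds (6), focal adhesion proteins (5), LIM and PDZ-LIM proteins (6), proteins of actin monomer and filament turnover (3) and upstream regulators (3). All 44 passed the filter on low counts and were among the 18218 genes tested.

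Poly(A) RNA was sequenced from primary chondrocytes of cartilage, kept in culture and, per the series' design text, differentiated. The 6 libraries formed 2 groups of 3, Nf2-knockout and control, and the controls carried the floxed Nf2 allele (Nf2 f/f) from which the knockout derives. In the labels, the treatment field of the Nf2-knockout libraries also names TCF21 overexpression, which their titles do not mention, and that of the controls reads control. The Cre driver, the deleted exons, the age of the mice and whether replicates were separate animals or cultures are not given in the sources used here. Each p-value therefore reflects the spread among these 6 libraries alone, which could be technical.

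Library totals ran from 50906043 to 63748798 counts. Nf2, the targeted gene, had 4592, 6351 and 6503 counts in the Nf2-knockout libraries and 7448, 7153 and 6979 counts in the control libraries, a log2 fold change of −0.41 (SE 0.0866, adjusted p = 0.0305). This call did not hold when any 1 of the 6 libraries was left out, at adjusted p from 0.0518 to 0.123. Tcf21 had 0, 2 and 0 counts in the Nf2-knockout libraries and 0 in each control library. Of the chondrocyte markers, Col2a1 stood at 701, 719 and 324 CPM in the Nf2-knockout libraries and 174, 250.2 and 269 CPM in the control libraries. It rose (log2 fold change 1.33, SE 0.316, adjusted p = 0.0446), Col9a2 fell (log2 fold change −1.55, adjusted p = 0.0482) and the other 13 chondrocyte markers did not pass. Thus 13.3% of these markers changed, against 9.29% of all genes tested. The cartilage proteoglycan gene Acan stood at 8.44, 12.6 and 3.55 CPM in the Nf2-knockout libraries and 11.5, 15.5 and 11.0 CPM in the control libraries. Summed CPM of the 10 fibroblast markers was 8970, 11155 and 10306 in the Nf2-knockout libraries and 12637, 13777 and 15970 in the control libraries. That of the 15 chondrocyte markers was 1835, 1972 and 1054 in the Nf2-knockout libraries and 909.8, 1373 and 1276 in the control libraries. Markers of skeletal muscle, cardiac muscle and endothelium each summed to at most 11.4 CPM in any library, and Myod1, Myf5, Myh8 and Mymk of the skeletal muscle list were at 0 in all 6. Of these 3 lists only the endothelial receptor gene Kdr passed the test (log2 fold change 1.36, adjusted p = 0.0196).

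Actin filaments are built from actin monomers, bundled by crosslinkers, anchored at focal adhesions and pulled by myosin, whose activity is set by the phosphorylation of its light chain. Polymerisation of actin frees the cofactors MRTF-A and MRTF-B to enter the nucleus, where they act with serum response factor (SRF) on many contractile genes. Merlin, the product of Nf2, lies under the plasma membrane close to the actin cortex and acts upstream of the Hippo kinases, which restrain the YAP and TAZ cofactors of the TEAD transcription factors. In cultured chondrocytes, stress fibres and smooth muscle actin are known to accompany the loss of the rounded, cartilage-forming state.

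Levels by library are in CPM, which are counts scaled by depth and TMM factor, in the order of replicates 1, 2 and 3 of each group. Levels of different genes are compared only in FPKM, the authors' value per length and depth. FPKM carries no TMM factor, and these factors were 1.03 to 1.05 in the Nf2-knockout libraries and 0.958 to 0.972 in the control libraries, so Nf2-knockout levels stand slightly higher in FPKM than in CPM. Log2 fold changes are Nf2-knockout over control, with adjusted p over all 18218 genes tested from edgeR's quasi-likelihood test and 0.05 as the threshold. Gene positions are on the GRCm38 build.

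Contractile genes moved in both directions in the Nf2-knockout libraries, with more of them up than down. Of the 44 genes, 14 changed (31.8%), against 9.29% of all genes tested. The 9 that rose included Acta2, Cnn2, Cald1, Actn1, Actn4, Flnc, Fhl1 and Fhl2, and the 9 made 20.5% of the 44, where 4.11% of all genes tested rose. The 5 that fell were Cotl1, Synpo2, Mylk, Tagln2 and Cnn3, 11.4% of the 44, where 5.18% of all genes tested fell. The remaining 30 did not pass the test. Only Fhl1, Acta2, Cotl1, Synpo2 and Mylk passed with a change of at least 2-fold.

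The CPM of the groups did not overlap for 23 of the 44 genes (52.3%, against 32.9% of all genes tested), with the Nf2-knockout libraries all above the controls for 18 (40.9%, against 15.5%) and all below for 5 (11.4%, against 17.4%). The 14 genes that changed were all among the 23. The median log2 fold change of the 44 genes was 0.22, beside −0.01 over all genes tested, and 33 of the 44 values were above 0 (75%, beside 48.9%). Without Nf2-knockout replicate 3 the median was 0.08. At an unadjusted p under 0.05 there were 21 of the 44 genes (47.7%, against 24.8%). Single libraries moved the number of calls: 5 genes, among them Actn1, Flnc, Fhl1 and Cotl1, passed in all 6 fits that left out 1 library. The matching share of all genes tested is not given here, so these 5 have no background to be judged against. Of the 44 genes, 6 passed when Nf2-knockout replicate 1 or control replicate 2 was dropped. Dropping Nf2-knockout replicate 3 or control replicate 1 left 7. The number was 10 once Nf2-knockout replicate 2 was removed. It was 11 once control replicate 3 was removed, Cfl1 and Pfn1 being gained there. Calls over all genes fell too, from 1693 to between 629 and 1186. In bulk RNA, fewer cells of a kind and less of a transcript per cell cannot be told apart.

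**Figure D1:**
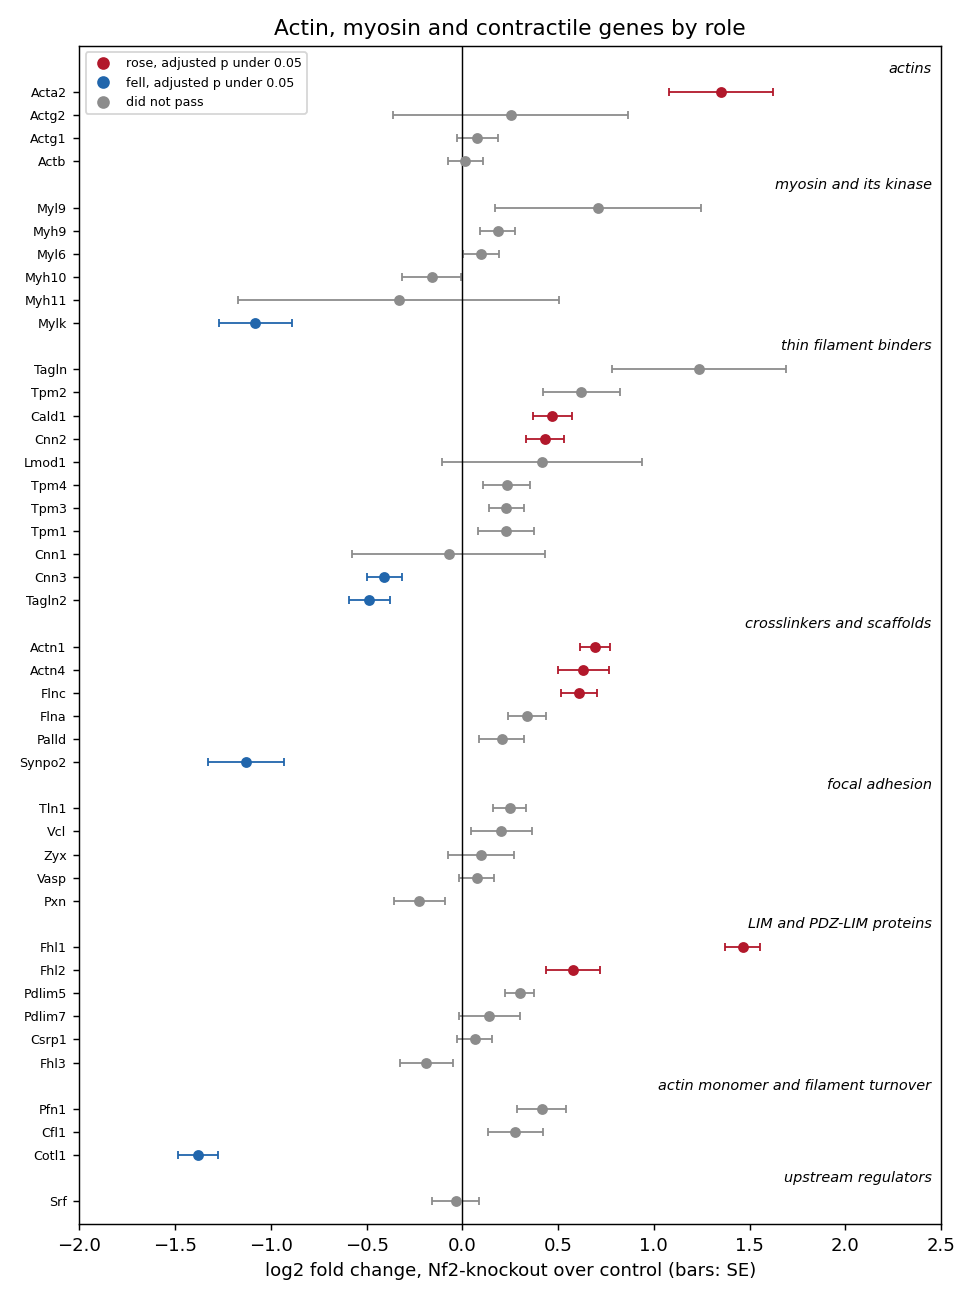
Log2 fold changes (x axis, Nf2-knockout over control, bars are SE) of 42 of the 44 genes in their 8 role groups, with genes that rose in red, that fell in blue and that did not pass the test in grey. Fhl1 at 1.46 and Acta2 at 1.35 lie farthest to the right among the genes that passed, Cotl1 at −1.38 farthest to the left, and the wide bars belong to smooth muscle genes of uneven level between libraries.

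Promoter sequences of the genes were read from RefSeq (GRCm38.p6, 250 bases before to 50 after the annotated start, on the gene's strand), where 37 of the 44 genes had an entry. The CArG box, the site of SRF (CC, 6 bases that are each A or T, GG, found on both strands alike), was present in 8 of the 37 (21.6%), against 1.81% of the 27025 genes in that table: Actg1, Cnn2, Fhl1, Fhl2, Myl6, Myl9, Srf and Vcl. Of these, Cnn2, Fhl1 and Fhl2 are among the 9 genes that rose (3 of 9, 33.3%), the other 5 are among the 24 genes that did not pass (20.8%), and 0 of the 4 genes that fell and had an entry held one. The core of the TEAD site, GGAATG or CATTCC on the other strand, was in 13 of the 37 (35.1%), against 16.6% of genes in the table, among them 4 of 9 that rose (44.4%) and 2 of 4 that fell (50%). Only Vcl held both motifs in 1 window, at separate places. A match describes the letters only and was not tied to binding. The sequences are those of the 3 genes that rose and hold a CArG box, then Srf itself with a pair of boxes, then Acta2, the smooth muscle actin, with its TEAD core. Capitals mark the CArG boxes or, in Acta2, the TEAD core. Only full matches were counted or marked. The Acta2 window also holds ccctatatgg and ccttgtttgg, each 1 base off the CArG pattern, so its lack of a counted box does not mean that it lacks an SRF site. The windows are chr10:79988350-79988649 (plus strand) for Cnn2, chrX:56779433-56779732 (plus strand) for Fhl1, chr1:43163912-43164211 (minus strand) for Fhl2, chr17:46556113-46556412 (minus strand) for Srf and chr19:34255324-34255623 (minus strand) for Acta2.
Cnn2: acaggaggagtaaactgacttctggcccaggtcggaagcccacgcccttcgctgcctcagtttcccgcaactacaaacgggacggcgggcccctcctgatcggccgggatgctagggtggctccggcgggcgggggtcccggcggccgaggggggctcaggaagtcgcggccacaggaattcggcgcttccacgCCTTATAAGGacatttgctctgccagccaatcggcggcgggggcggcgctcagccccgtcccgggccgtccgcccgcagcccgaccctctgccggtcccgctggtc
Fhl1: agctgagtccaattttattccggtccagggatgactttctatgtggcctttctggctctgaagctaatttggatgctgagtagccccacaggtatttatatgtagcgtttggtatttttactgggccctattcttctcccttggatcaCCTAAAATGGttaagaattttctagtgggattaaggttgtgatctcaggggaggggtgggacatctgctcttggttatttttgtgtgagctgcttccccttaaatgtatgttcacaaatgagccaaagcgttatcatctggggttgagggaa
Fhl2: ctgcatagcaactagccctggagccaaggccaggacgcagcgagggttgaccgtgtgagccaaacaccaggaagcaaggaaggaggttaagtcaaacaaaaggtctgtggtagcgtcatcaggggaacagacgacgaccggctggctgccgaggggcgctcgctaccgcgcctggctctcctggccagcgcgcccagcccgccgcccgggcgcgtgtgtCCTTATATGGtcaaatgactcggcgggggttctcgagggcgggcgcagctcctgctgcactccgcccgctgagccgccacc
Srf: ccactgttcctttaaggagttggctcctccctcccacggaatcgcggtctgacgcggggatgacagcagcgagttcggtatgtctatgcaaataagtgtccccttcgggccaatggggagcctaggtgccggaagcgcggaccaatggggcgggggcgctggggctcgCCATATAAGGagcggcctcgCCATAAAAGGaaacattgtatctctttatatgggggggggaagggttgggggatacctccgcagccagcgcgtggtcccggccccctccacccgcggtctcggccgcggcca
Acta2: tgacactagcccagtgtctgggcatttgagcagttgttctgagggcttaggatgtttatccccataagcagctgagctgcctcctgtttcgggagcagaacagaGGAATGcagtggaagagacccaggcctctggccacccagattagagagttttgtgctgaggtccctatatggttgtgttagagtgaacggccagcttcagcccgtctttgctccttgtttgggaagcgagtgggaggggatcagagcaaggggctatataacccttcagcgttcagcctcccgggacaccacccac
Counted from the annotated start, the box begins at base −56 in Cnn2, −102 in Fhl1 and −31 in Fhl2, at −82 and −62 in Srf, and the TEAD core of Acta2 at −146. Fhl2 has an upstream promoter with a further box at −96, and Fhl1 a downstream promoter without one.

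The actins were led by the cytoplasmic forms, and only the smooth muscle form Acta2 changed. Actg1, cytoplasmic gamma-actin, had the highest level of the 44 genes at 492 ± 49.9 FPKM in the Nf2-knockout libraries and 435 ± 30.5 FPKM in the control libraries (SD, n = 3 each), followed by Actb, cytoplasmic beta-actin, at 327 ± 9.59 FPKM in the Nf2-knockout libraries and 301 ± 25.3 FPKM in the control libraries (SD, n = 3 each). Acta2, alpha smooth muscle actin (chr19:34241090-34255590, minus strand), stood at 274, 262 and 529.6 CPM in the Nf2-knockout libraries and 153, 131 and 133 CPM in the control libraries. All 3 Nf2-knockout libraries lay above all 3 controls, and replicate 3 was 1.94 times the higher of the other Nf2-knockout libraries. Acta2 rose 2.55-fold (log2 fold change 1.35, SE 0.272, adjusted p = 0.0264). Without Nf2-knockout replicate 3 its log2 fold change was 0.95 (adjusted p = 0.0148), and the call was lost without control replicate 1, 2 or 3 (adjusted p = 0.0681, 0.0972 and 0.0807).

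Actb stood at 914, 958 and 949 CPM in the Nf2-knockout libraries and 1003, 851 and 935 CPM in the control libraries, and its groups overlapped (log2 fold change 0.02, SE 0.0908, adjusted p = 0.941). Actg1 stood at 1499, 1247 and 1468 CPM in the Nf2-knockout libraries and 1422, 1241 and 1329 CPM in the control libraries, again overlapping (log2 fold change 0.08, SE 0.106, adjusted p = 0.712). Actg2, the enteric smooth muscle gamma-actin (chr6:83512905-83536265, minus strand), had 77 to 379 counts in a library and stood at 1.915, 1.901 and 5.67 CPM in the Nf2-knockout libraries and 4.81, 1.43 and 1.73 CPM in the control libraries (log2 fold change 0.25, SE 0.615, adjusted p = 0.848). Nf2-knockout replicate 3 held 2.96 times and control replicate 1 held 2.77 times the higher of the other libraries of its group, and the groups overlapped. The actin genes are close copies of one another with many processed copies in the genome, and since the sources used here do not give how reads with several matches were counted, splits between them are uncertain. The annotated copy Actb-ps1 held 2 counts over all libraries.

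Within each library, Acta2 took a larger share of the actin transcripts. Its share of the summed FPKM of the 4 actins was 12.1%, 12.6% and 20.9% in the Nf2-knockout libraries and 7.09%, 7.08% and 6.64% in the control libraries. The means were 15.2% ± 4.98 in the Nf2-knockout libraries and 6.94% ± 0.259 in the control libraries (SD, n = 3 each), a difference of 8.27 percentage points (exact two-sided permutation p = 0.1, the smallest that 3 against 3 libraries allow), and 5.40 without Nf2-knockout replicate 3. Actb held 33.9% ± 3.55 in the Nf2-knockout libraries and 38.0% ± 0.393 in the control libraries (exact p = 0.2), and Actg1 50.7% ± 3.53 in the Nf2-knockout libraries and 54.9% ± 0.394 in the control libraries (exact p = 0.2). The shares of both cytoplasmic forms overlapped between groups. Summed actin FPKM was 955, 878 and 1084 in the Nf2-knockout libraries and 857, 735 and 786 in the control libraries.

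**Figure D2:**
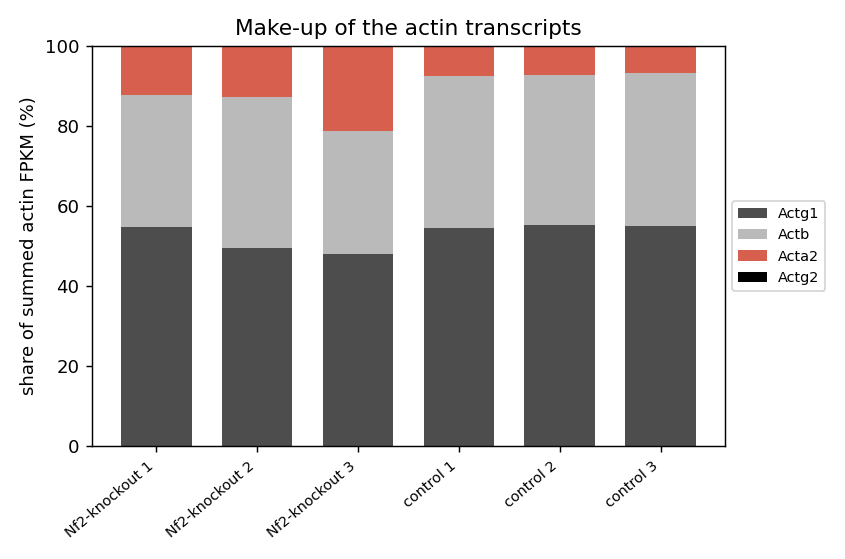
Share of each actin gene (y axis, percent of the summed FPKM of Actg1, Actb, Acta2 and Actg2) in each of the 6 libraries (x axis). The Acta2 segment at the top lies between 12.1% and 20.9% in the Nf2-knockout libraries and between 6.64% and 7.09% in the control libraries, and Actg2 is too small to see.

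Among myosins and their kinase, only Mylk changed, and it fell. Mylk encodes myosin light chain kinase, which phosphorylates the regulatory light chain in response to calcium (chr16:34745210-35002420, plus strand). It stood at 97.9, 142 and 91.0 CPM in the Nf2-knockout libraries and 204, 269 and 227 CPM in the control libraries. Every Nf2-knockout library was below every control (log2 fold change −1.08, SE 0.189, adjusted p = 0.0174), at a level 2.12-fold higher in control libraries. Leaving out Nf2-knockout replicate 1 (adjusted p = 0.075), Nf2-knockout replicate 3 (0.0602) or control replicate 2 (0.0615) ended the call.

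Myl6, the essential light chain shared by smooth and non-muscle myosin, was the most abundant of this group at 192 ± 8.78 FPKM in the Nf2-knockout libraries and 168 ± 14.1 FPKM in the control libraries (SD, n = 3 each), and at 669, 628 and 677 CPM in the Nf2-knockout libraries and 565, 669 and 610.0 CPM in the control libraries its groups overlapped (log2 fold change 0.10, SE 0.0924, adjusted p = 0.579). Myl9, the regulatory light chain of smooth muscle myosin, stood at 16.7, 13.0 and 52.9 CPM in the Nf2-knockout libraries and 22.6, 11.2 and 16.8 CPM in the control libraries (log2 fold change 0.71, SE 0.538, adjusted p = 0.481). Nf2-knockout replicate 3 was 3.17 times the higher of the other Nf2-knockout libraries, and without it the log2 fold change of Myl9 was −0.18. Myh9, the heavy chain of non-muscle myosin IIA, was higher in all 3 Nf2-knockout libraries but did not pass, at 682, 685 and 731 CPM in the Nf2-knockout libraries and 570.2, 615 and 663 CPM in the control libraries (log2 fold change 0.18, SE 0.0891, adjusted p = 0.259). Myh10, the heavy chain of non-muscle myosin IIB, and Myh11, the smooth muscle heavy chain, had log2 fold changes of −0.16 (adjusted p = 0.582) and −0.33 (adjusted p = 0.852), and Myh11 was at or below 4.20 CPM in every library. Myh9 made 90.7% ± 1.64 of the summed FPKM of the 3 heavy chains in the Nf2-knockout libraries and 88.4% ± 1.24 in the control libraries (SD, n = 3 each, exact p = 0.2).

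Thin filament binders split, with Cnn2 and Cald1 up and Tagln2 and Cnn3 down, and 7 of 11 did not pass. Calponins are actin-binding proteins that restrain actomyosin ATPase. Cnn2, the calponin of non-muscle cells (chr10:79988584-79996062, plus strand), stood at 349.7, 335 and 347 CPM in the Nf2-knockout libraries and 228, 251 and 286 CPM in the control libraries (log2 fold change 0.43, SE 0.101, adjusted p = 0.0424). Cnn3, acidic calponin (chr3:121426497-121458207, plus strand), stood at 229, 255 and 227 CPM in the Nf2-knockout libraries and 301, 303 and 339 CPM in the control libraries (log2 fold change −0.41, SE 0.0912, adjusted p = 0.0368). The groups did not overlap for either gene. Among the fits that left out 1 library, the call for Cnn2 held only without control replicate 3 (adjusted p = 0.0303, against 0.088 to 0.133 without each other library), and that for Cnn3 was lost without any 1 library, at adjusted p from 0.0547 to 0.152. Neither passed without the filter on low counts, and Cnn3 also did not pass with library sizes alone or with limma on FPKM.

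The pair shifted against each other within libraries. Cnn2 made 63.8% ± 1.94 of the summed calponin FPKM in the Nf2-knockout libraries and 49.6% ± 1.57 in the control libraries, and Cnn3 35.6% ± 2.12 in the Nf2-knockout libraries and 49.6% ± 1.31 in the control libraries (SD, n = 3 each, exact p = 0.1 for both). These shares restate the levels of Cnn2 and Cnn3 given above. As Cnn1 was a small part of the sum, the shares nearly mirror each other and their p-values are not separate results. Cnn1, the smooth muscle calponin, stood at 1.97, 2.80 and 7.59 CPM in the Nf2-knockout libraries and 5.70, 3.49 and 3.82 CPM in the control libraries (log2 fold change −0.07, SE 0.503, adjusted p = 0.955) and made at most 1.27% of calponin FPKM in any library. The sign of the Cnn1 difference turned with library sizes alone, and when Nf2-knockout replicate 1 or 2 or control replicate 1 was left out (log2 fold changes 0.28, 0.15 and 0.18).

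Cald1, caldesmon, which links actin and myosin and blocks their sliding (chr6:34598500-34775473, plus strand), stood at 816, 791 and 764 CPM in the Nf2-knockout libraries and 602, 611 and 499.9 CPM in the control libraries (log2 fold change 0.47, SE 0.102, adjusted p = 0.0339). All 3 Nf2-knockout libraries were above all controls, and the call held without control replicate 3 (adjusted p = 0.0499) and was lost without each other library (adjusted p from 0.0591 to 0.108). Tagln2, transgelin 2, an actin-binding protein abundant in leukocytes and fibroblasts (chr1:172500047-172507380, plus strand), stood at 131, 143 and 119 CPM in the Nf2-knockout libraries and 169, 204 and 176 CPM in the control libraries (log2 fold change −0.49, SE 0.109, adjusted p = 0.0371). The groups did not overlap, and the call held without Nf2-knockout replicate 2 (adjusted p = 0.0492) and was lost without each other library (adjusted p from 0.0571 to 0.13). Tagln2 also did not pass with library sizes alone, without the filter on low counts or with limma on FPKM.

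Tagln, the smooth muscle transgelin also called SM22, showed the largest log2 fold change among genes that did not pass. It stood at 58.8, 60.3 and 169.6 CPM in the Nf2-knockout libraries and 49.2, 26.4 and 46.9 CPM in the control libraries (log2 fold change 1.24, SE 0.455, adjusted p = 0.146). All 3 Nf2-knockout libraries were above all controls, but replicate 3 was 2.82 times the higher of the others, and without it the log2 fold change was 0.55 (adjusted p = 0.322). On 62.4% of its exon bases Tagln overlaps the antisense gene Gm48529, whose count was 0.0777 of that of Tagln, and the sources used here do not say whether counting used strand. The ratio of Tagln to Tagln2 in FPKM was 0.471, 0.442 and 1.49 in the Nf2-knockout libraries and 0.304, 0.135 and 0.279 in the control libraries.

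The tropomyosins, which run along the filament and set which proteins bind it, had positive values that did not pass the test. Tpm2, beta-tropomyosin, stood at 130.1, 114 and 177 CPM in the Nf2-knockout libraries and 107, 72.7 and 93.4 CPM in the control libraries (log2 fold change 0.62, SE 0.201, adjusted p = 0.108), with the Nf2-knockout libraries all above the controls. Among the alternatives, Tpm2 passed with DESeq2 only. Tpm1, Tpm3 and Tpm4 each had a log2 fold change of 0.23 (adjusted p = 0.393, 0.172 and 0.298), and Tpm4 was the most abundant, at 112 ± 8.66 FPKM in the Nf2-knockout libraries and 89.2 ± 13.7 FPKM in the control libraries (SD, n = 3 each). Tpm2 made 18.3% ± 2.51 of tropomyosin FPKM in the Nf2-knockout libraries and 14.7% ± 1.85 in the control libraries (SD, n = 3 each, exact p = 0.1). Lmod1, leiomodin 1, a filament nucleator of smooth muscle, stood at 1.61, 2.27 and 6.57 CPM in the Nf2-knockout libraries and 3.25, 2.24 and 2.35 CPM in the control libraries (log2 fold change 0.41, SE 0.523, adjusted p = 0.688), and without Nf2-knockout replicate 3 its log2 fold change was −0.42.

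**Figure D3:**
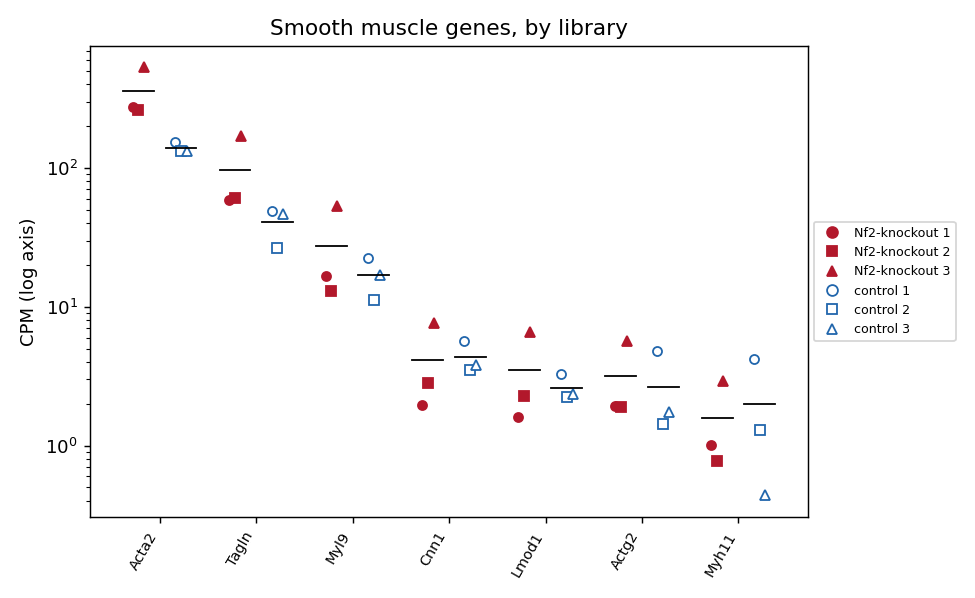
CPM (log axis) of 7 smooth muscle genes in each library, with Nf2-knockout libraries as filled red symbols left of the control libraries as open blue symbols, and bars at the group means. Nf2-knockout replicate 3 (filled triangle) lies at 1.94 to 3.17 times the higher of the other Nf2-knockout libraries for each gene.

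Among the Nf2-knockout libraries, a set of 7 of the genes known from smooth muscle stood highest in replicate 3. This library was at least 1.5 times the higher of the other 2 Nf2-knockout libraries for Acta2, Actg2, Myl9, Myh11, Tagln, Cnn1 and Lmod1 (15.9% of the 44 genes, against 5.66% of all genes tested). Control replicate 1 stood out in the same way for Actg2 (2.77 times) and Myh11 (3.23 times), which is 4.55% of the 44 genes against 5.71% of all genes tested, and Nf2-knockout replicates 1 and 2 and control replicates 2 and 3 did so for 0 of the 44, against 7.76%, 4.72%, 6.71% and 5.43% of all genes tested. The set was picked for its values in Nf2-knockout replicate 3 and is given as a description. For Myh11 the highest library was control replicate 1, at 4.20 CPM beside 2.92 CPM in Nf2-knockout replicate 3. For the 37 genes outside the set, the ratio of Nf2-knockout replicate 3 to the higher of the other Nf2-knockout libraries lay between 0.580 and 1.39. These include other genes of smooth or striated muscle, on both sides of 1. Their ratios were 0.580 for Synpo2, 0.642 for Mylk, 0.859 for Flnc, 0.870 for Fhl1 and 0.936 for Cald1. Above 1 were Csrp1 at 1.16, Fhl2 at 1.25 and Tpm2 at 1.36. As the plot of smooth muscle genes by library shows, the groups overlapped for 5 of the 7, with Acta2 and Tagln as the exceptions.

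Further markers of pericytes and smooth muscle were mixed in replicate 3. Of 14 such markers, 3 were at least 1.5 times as high there as in either other Nf2-knockout library, and they were named after their values were seen. The receptor gene Notch3 stood at 10.3, 6.95 and 16.2 CPM in the Nf2-knockout libraries and 9.98, 4.53 and 7.497 CPM in the control libraries. Ppp1r14a, an inhibitor of myosin phosphatase, stood at 1.86, 1.98 and 3.71 CPM in the Nf2-knockout libraries and 1.37, 0.408 and 0.718 CPM in the control libraries. Myocd, the smooth muscle cofactor of SRF, had 11, 8 and 30 counts in the Nf2-knockout libraries and 7, 0 and 0 counts in the control libraries, too few to be tested. Ndufa4l2 went the other way, at 55.1, 52.5 and 5.27 CPM in the Nf2-knockout libraries and 76.2, 30.6 and 30.7 CPM in the control libraries. The summed CPM of the 14 was 459, 445 and 451 in the Nf2-knockout libraries and 461, 407 and 388 in the control libraries. Of the 12 tested, Rgs5 (log2 fold change 1.96, adjusted p = 0.0135) and Cspg4 (1.08, adjusted p = 0.00541) rose and Abcc9 (−2.67, adjusted p = 0.0224) fell. That is 25% of those tested, against 9.29% of all genes tested. Des, the intermediate filament of muscle, stood at 16.5, 5.29 and 13.9 CPM in the Nf2-knockout libraries and 22.8, 8.70 and 15.4 CPM in the control libraries, and Higd1b was at 0 in every library. The sum of chondrocyte markers was lowest in the same replicate among the Nf2-knockout libraries, at 1054 CPM beside 1835 and 1972. The part of other cells or of the state of that culture in these values was not tested.

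Crosslinkers and scaffolds had calls in 4 of 6 genes, with 3 up and 1 down. Alpha-actinins bundle actin filaments in stress fibres and at adhesions. Actn1, alpha-actinin 1 (chr12:80167547-80260371, minus strand), stood at 269, 275 and 254 CPM in the Nf2-knockout libraries and 158, 169 and 167 CPM in the control libraries. The replicates lay close together and the groups were well apart (log2 fold change 0.69, SE 0.0775, adjusted p = 0.00480), a rise of 1.62-fold that held in all 6 fits that left out 1 library. Actn4, alpha-actinin 4 (chr7:28893248-28962340, minus strand), stood at 475, 380.3 and 398 CPM in the Nf2-knockout libraries and 239, 312 and 258 CPM in the control libraries (log2 fold change 0.63, SE 0.133, adjusted p = 0.0312). This 1.55-fold rise was without overlap and did not pass when Nf2-knockout replicate 1 was left out (adjusted p = 0.0889), nor Nf2-knockout replicate 3 (0.0676), control replicate 1 (0.0823) or control replicate 3 (0.0821). The ratio of Actn1 to Actn4 in FPKM was 0.711 ± 0.087 in the Nf2-knockout libraries and 0.681 ± 0.072 in the control libraries (SD, n = 3 each, exact p = 0.7).

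Filamins join filaments into networks and tie them to integrins. Flnc, filamin C, best known from muscle (chr6:29433256-29461883, plus strand), stood at 193, 168 and 166 CPM in the Nf2-knockout libraries and 118, 108 and 118 CPM in the control libraries. The groups were apart (log2 fold change 0.61, SE 0.0933, adjusted p = 0.0113), and the 1.53-fold rise held in all 6 fits that left out 1 library. Flna, filamin A, had a higher level than Flnc, at 52.3 ± 4.01 FPKM in the Nf2-knockout libraries and 38.6 ± 3.19 FPKM in the control libraries (SD, n = 3 each), beside 17.4 ± 1.41 FPKM in the Nf2-knockout libraries and 10.6 ± 0.530 FPKM in the control libraries (SD, n = 3 each) for Flnc. Flna stood at 538, 491 and 564 CPM in the Nf2-knockout libraries and 390.1, 458 and 411 CPM in the control libraries, all Nf2-knockout libraries above all controls, but it did not pass (log2 fold change 0.34, SE 0.0976, adjusted p = 0.0804). It passed with DESeq2, with library sizes alone and with limma on the filtered FPKM values.

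Synpo2, myopodin, a scaffold that binds alpha-actinin and filamin (chr3:123076519-123236096, minus strand), went the other way from its partners. It stood at 13.2, 16.6 and 9.64 CPM in the Nf2-knockout libraries and 27.5, 31.1 and 27.7 CPM in the control libraries, a low level at 0.933 ± 0.242 FPKM in the Nf2-knockout libraries and 1.91 ± 0.138 FPKM in the control libraries (SD, n = 3 each). The control libraries held 2.19-fold more, with no overlap (log2 fold change −1.13, SE 0.199, adjusted p = 0.0181), and leaving out Nf2-knockout replicate 1 (adjusted p = 0.0732) or control replicate 2 (0.0653) ended the call. Palld, palladin, which binds alpha-actinin in stress fibres, was higher in all 3 Nf2-knockout libraries without passing, at a log2 fold change of 0.21 (adjusted p = 0.336).

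Focal adhesion genes did not pass, 5 of 5. Tln1, talin 1, which activates integrins and ties them to actin, came closest, at 304, 325 and 319.7 CPM in the Nf2-knockout libraries and 261, 288 and 249.9 CPM in the control libraries, with all Nf2-knockout libraries above all controls (log2 fold change 0.25, SE 0.0855, adjusted p = 0.127). Vcl, vinculin, Zyx, zyxin, and Vasp, a promoter of filament growth, had log2 fold changes of 0.20 (adjusted p = 0.492), 0.10 (adjusted p = 0.778) and 0.07 (adjusted p = 0.675), and Pxn, paxillin, −0.22 (adjusted p = 0.354). Vasp, at 29.8 ± 2.67 FPKM in the Nf2-knockout libraries and 26.3 ± 0.950 FPKM in the control libraries (SD, n = 3 each), and Tln1, at 30.0 ± 1.15 FPKM in the Nf2-knockout libraries and 23.6 ± 1.80 FPKM in the control libraries (SD, n = 3 each), were at similar levels, and Pxn was the lowest. Vcl shares 25.5% of its exon bases with the opposite-strand gene Ap3m1, whose count was 2.30 times that of Vcl, so its values are uncertain if counting ignored strand. At an unadjusted p under 0.05 only Tln1 was among the 5.

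**Figure D4:**
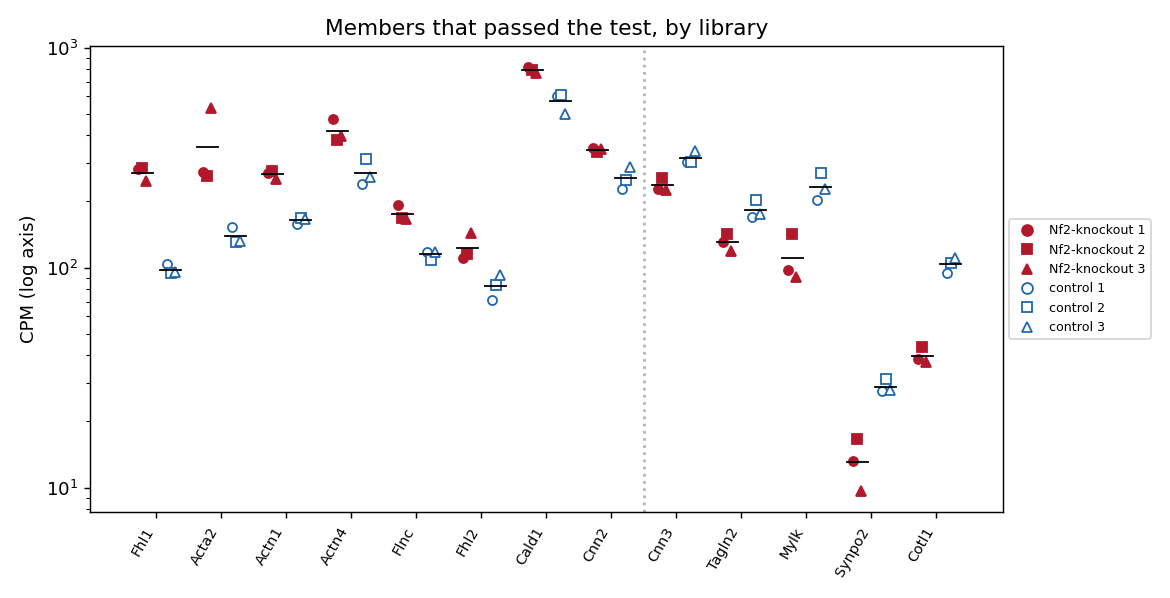
CPM (log axis) of 13 of the 14 genes that passed the test in each library, with Nf2-knockout libraries as filled red symbols left of the control libraries as open blue symbols, bars at the group means and a dotted line between genes that rose and genes that fell. The groups are apart for all 13 genes shown, and the widest spread among Nf2-knockout libraries of a gene that rose is that of Acta2, at 262 to 529.6 CPM.

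LIM proteins gave the largest rise. LIM domains are zinc-binding modules, and the FHL proteins, built of these alone, shuttle between adhesions, sarcomeres and the nucleus. Fhl1 (chrX:56731787-56793346, plus strand), known from muscle, stood at 280.3, 284 and 247 CPM in the Nf2-knockout libraries and 104, 94.7 and 95.6 CPM in the control libraries. The lowest Nf2-knockout library, replicate 3, was more than 2 times the highest control, replicate 1. Fhl1 rose 2.76-fold (log2 fold change 1.46, SE 0.0915, adjusted p = 0.00304). In the 6 fits that left out 1 library its value ran between 1.43 and 1.53 on the log2 scale, with a call in each. It also passed under each alternative test and scaling.

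Fhl2 (chr1:43123074-43196984, minus strand), a cofactor found in heart and at adhesions, stood at 111, 115 and 144 CPM in the Nf2-knockout libraries and 71.6, 83.2 and 93.0 CPM in the control libraries. The groups did not overlap (log2 fold change 0.58, SE 0.140, adjusted p = 0.0469), but this call did not hold when any 1 of the 6 libraries was left out, at adjusted p from 0.0563 to 0.133. Fhl3, the third of the family here, stood at 15.9, 17.0 and 21.03 CPM in the Nf2-knockout libraries and 20.8, 18.9 and 21.9 CPM in the control libraries (log2 fold change −0.19, SE 0.139, adjusted p = 0.467). Fhl1 made 49.2% ± 5.39 of the summed FHL FPKM in the Nf2-knockout libraries and 32.3% ± 3.28 in the control libraries (exact p = 0.1), while Fhl3 made 7.18% ± 0.784 in the Nf2-knockout libraries and 14.9% ± 0.952 in the control libraries (SD, n = 3 each, exact p = 0.1).

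Pdlim5, also called ENH, which ties kinases to alpha-actinin, missed the threshold narrowly. It stood at 112, 110.2 and 119 CPM in the Nf2-knockout libraries and 91.6, 95.3 and 90.0 CPM in the control libraries, all Nf2-knockout libraries above all controls (log2 fold change 0.30, SE 0.0767, adjusted p = 0.0560). It passed with DESeq2, with DESeq2's size factors, with library sizes alone and with limma on the filtered FPKM values. Pdlim7, also called enigma, had a log2 fold change of 0.14 (adjusted p = 0.644). Csrp1, a cysteine-rich LIM protein of smooth muscle that binds alpha-actinin and zyxin, had the highest mean level of this group at 66.4 ± 6.78 FPKM in the Nf2-knockout libraries and 59.2 ± 1.98 FPKM in the control libraries (SD, n = 3 each), and at 131, 133 and 154 CPM in the Nf2-knockout libraries and 135, 128 and 137 CPM in the control libraries its groups overlapped (log2 fold change 0.06, SE 0.0923, adjusted p = 0.728).

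Proteins of actin monomer and filament turnover gave the largest fall. Cotl1, coactosin-like 1, an F-actin binder of the cofilin family that is abundant in leukocytes (chr8:119809222-119840544, minus strand), stood at 38.3, 43.5 and 37.3 CPM in the Nf2-knockout libraries and 94.6, 105 and 111 CPM in the control libraries. The highest Nf2-knockout library, replicate 2, lay far below the lowest control, replicate 1, and control libraries held 2.60-fold more (log2 fold change −1.38, SE 0.104, adjusted p = 0.00304). The call held in all 6 fits that left out 1 library, with log2 fold changes from −1.45 to −1.33. Pfn1, profilin 1, which feeds actin monomers to growing filaments, stood at 677, 613 and 661 CPM in the Nf2-knockout libraries and 458, 428 and 578 CPM in the control libraries, all Nf2-knockout libraries above all controls (log2 fold change 0.41, SE 0.126, adjusted p = 0.0929). It passed with DESeq2, with library sizes alone and without control replicate 3 (adjusted p = 0.0305). Cfl1, cofilin 1, which severs filaments, stood at 630.1, 656 and 710.4 CPM in the Nf2-knockout libraries and 503, 471 and 674 CPM in the control libraries (log2 fold change 0.28, SE 0.145, adjusted p = 0.296), with overlap through control replicate 3, without which it passed (adjusted p = 0.0491). Pfn1, at 252 ± 13.5 FPKM in the Nf2-knockout libraries and 176 ± 27.7 FPKM in the control libraries (SD, n = 3 each), and Cfl1, at 218 ± 15.4 FPKM in the Nf2-knockout libraries and 168 ± 32.3 FPKM in the control libraries (SD, n = 3 each), followed the cytoplasmic actins in level.

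Macrophage markers moved in the same direction as Cotl1 and Tagln2, which leukocytes also express. All 10 had negative log2 fold changes, with a median of −2.08, and Cd68 (−0.76, adjusted p = 0.0369), Csf1r (−1.60, adjusted p = 0.0219) and Mrc1 (−2.21, adjusted p = 0.0306) fell (30% of the 10, where 5.18% of all genes tested fell). Their summed CPM was 98.7, 78.1 and 46.0 in the Nf2-knockout libraries and 132, 339 and 171 in the control libraries. The highest control for this sum was replicate 2, while Cotl1 was highest in control replicate 3 and Tagln2 in control replicate 2. Fibroblast markers also fell in part, with Lum (−1.78, adjusted p = 0.0264), Pdgfra (−1.42, adjusted p = 0.00332) and Fap (−1.73, adjusted p = 0.0297) lower and S100a4 (1.03, adjusted p = 0.0318) higher (40% of that list, against 9.29% of all genes tested). The part of these cells in the falls of Cotl1 and Tagln2 was not tested.

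Among the upstream regulators, Srf, serum response factor, did not pass. It stood at 27.7, 35.1 and 35.0 CPM in the Nf2-knockout libraries and 34.8, 32.4 and 33.0 CPM in the control libraries (log2 fold change −0.03, SE 0.121, adjusted p = 0.897), and the sign of this difference turned under library sizes alone, under limma on FPKM and without Nf2-knockout replicate 1.

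Ratios of related genes within a library do not depend on how libraries are scaled, and 8 were computed in FPKM. The groups were apart for 5 of them, all higher in the Nf2-knockout libraries: Acta2 over Actb, Tagln over Tagln2, Cnn2 over Cnn3, Fhl1 over Fhl3 and Fhl2 over Fhl3 (exact two-sided permutation p = 0.1 for each, 0.16 after Benjamini-Hochberg adjustment over the 8). The pairs were picked by hand from genes described above, so the ratios restate their values and are not separate evidence. In CPM, Tagln and Cnn2 were already higher and Tagln2 and Cnn3 lower in all 3 Nf2-knockout libraries, so their ratios were bound to be apart. Cnn2 over Cnn3 was 1.80 ± 0.155 in the Nf2-knockout libraries and 1.00 ± 0.0571 in the control libraries. Fhl1 over Fhl3 was 6.95 ± 1.43 in the Nf2-knockout libraries and 2.17 ± 0.167 in the control libraries. Acta2 over Actb was 0.460 ± 0.192 in the Nf2-knockout libraries and 0.183 ± 0.00818 in the control libraries (SD, n = 3 each). Actg1 over Actb, Myh9 over Myh10 and Actn1 over Actn4 overlapped between the groups (exact p = 0.7, 0.2 and 0.7).

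**Figure D5:**
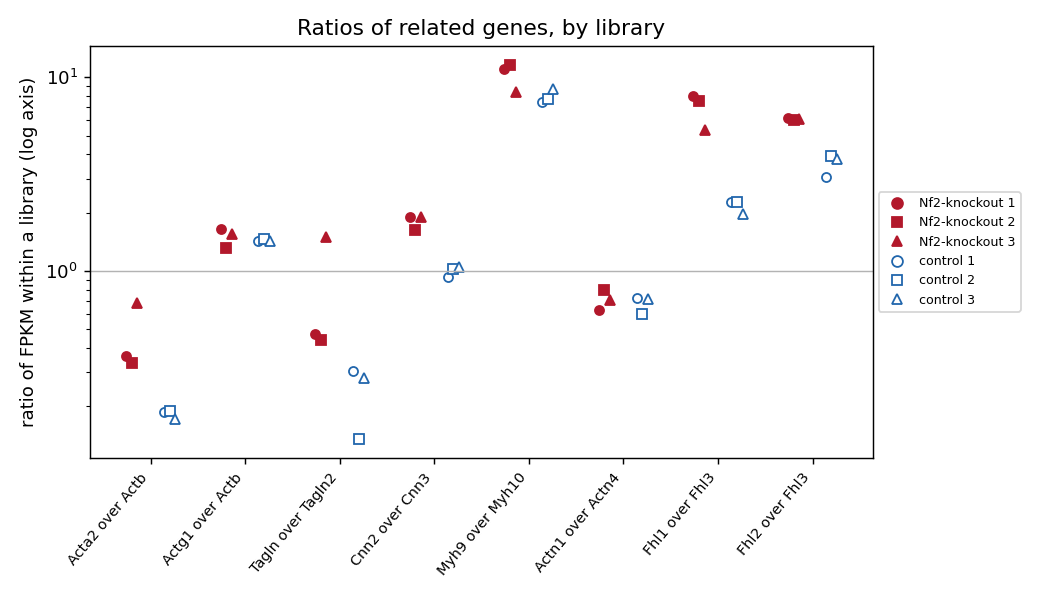
Ratio of FPKM values within each library (log axis) for 8 pairs of related genes, with Nf2-knockout libraries as filled red symbols left of the control libraries as open blue symbols. The groups are apart for 5 pairs and overlap for Actg1 over Actb, Myh9 over Myh10 and Actn1 over Actn4.

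Genes around the 44 in the same pathways also included changes in both directions. Of 23 tested genes of the upstream control of actin, the MRTF cofactors among them, 2 rose and 1 fell (13.0%, against 9.29% of all genes tested, median log2 fold change −0.01). Both LIM kinases, which phosphorylate and silence cofilin, rose: Limk2 stood at 81.1, 69.3 and 68.7 CPM in the Nf2-knockout libraries and 37.7, 40.1 and 46.4 CPM in the control libraries (log2 fold change 0.82, SE 0.117, adjusted p = 0.00978) and Limk1 at 21.2, 17.3 and 24.6 CPM in the Nf2-knockout libraries and 12.2, 9.90 and 12.0 CPM in the control libraries (log2 fold change 0.89, SE 0.166, adjusted p = 0.0210). Ssh2, a slingshot phosphatase that reverses this step, fell, at 40.6, 38.2 and 33.2 CPM in the Nf2-knockout libraries and 60.1, 74.2 and 57.2 CPM in the control libraries (log2 fold change −0.77, SE 0.134, adjusted p = 0.0171). The groups did not overlap for any of the 3, Limk2 passed in all 6 fits that left out 1 library, Ssh2 lost its call without Nf2-knockout replicate 3 (adjusted p = 0.0587), and Limk1 held its call only without Nf2-knockout replicate 2 (adjusted p = 0.0232, against 0.0516 to 0.0723 without each other library). Ssh1, the other slingshot gene of this list, did not pass and its groups overlapped (log2 fold change −0.01, SE 0.134, adjusted p = 0.975). Mrtfa and Mrtfb, which encode MRTF-A and MRTF-B, had log2 fold changes of −0.29 and −0.30 (adjusted p = 0.224 and 0.551).

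Of 26 further genes of actin assembly, 2 rose and 1 fell, 11.5%, a share near the 9.29% of all genes tested (median log2 fold change 0.06). Tropomodulins cap the pointed end of filaments: Tmod1 fell, at 19.9, 20.4 and 14.7 CPM in the Nf2-knockout libraries and 47.1, 45.3 and 35.3 CPM in the control libraries (log2 fold change −1.22, SE 0.172, adjusted p = 0.00946), and Tmod3, the widely expressed form, rose, at 216, 208 and 199 CPM in the Nf2-knockout libraries and 151, 146 and 123 CPM in the control libraries (log2 fold change 0.57, SE 0.101, adjusted p = 0.0183). Tmod1 passed in all 6 fits that left out 1 library, and Tmod3 lost its call without Nf2-knockout replicate 1 (adjusted p = 0.0701) or control replicate 2 (0.0571). Fscn1, fascin, which bundles filaments in protrusions, rose at 183, 195 and 203 CPM in the Nf2-knockout libraries and 118, 136 and 154 CPM in the control libraries (log2 fold change 0.51, SE 0.114, adjusted p = 0.0362) and held its call only without control replicate 3 (adjusted p = 0.0319, against 0.0699 to 0.114 without each other library). Wdr1, a partner of cofilin, had a log2 fold change of −0.37 (adjusted p = 0.0856).

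Of 27 tested contractile and adhesion genes outside the 44, 4 rose and 1 fell (18.5%, against 9.29% of all genes tested, median log2 fold change 0.13). Pdlim1, which binds alpha-actinin, stood at 78.9, 70.0 and 109 CPM in the Nf2-knockout libraries and 29.1, 31.2 and 36.6 CPM in the control libraries (log2 fold change 1.41, SE 0.182, adjusted p = 0.00763). It rose in all 6 fits that left out 1 library as well, with groups far apart. Pdlim2 (log2 fold change 0.50, adjusted p = 0.0191) also rose, and Synm, the intermediate filament protein synemin, fell (−0.68, adjusted p = 0.0264). Without single libraries the calls of Pdlim2 and Synm were mostly lost: Pdlim2 held without Nf2-knockout replicate 2 and control replicate 3 only (adjusted p = 0.0556 to 0.0698 otherwise), and Synm likewise (0.0754 to 0.108 otherwise). Pdlim3, of the same family as Pdlim1, was at 0 in every library.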

How the data were processed

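Per the submitters' processing notes the tools were cutadapt 1.9, HISAT2 2.0.4, StringTie 1.3.4d and edgeR, with no roles given. Not given in the sources used here are the genome build, the strandedness and the handling of reads with several matches. A single table was deposited by the authors, with a whole-number count and an FPKM value for each gene and library, and a count of 0 is written there as an FPKM of 0.0001. For 37 of the 44 genes the table's start and end match GENCODE M21, which annotates GRCm38, and positions are printed as GRCm38. The length implied by the deposited count and FPKM was within 1% of 1.11 times the M21 exon length for 42 of the 44 genes, the others being Tpm4 (2.15 times) and Pxn (1.19 times). Each of the table's count and FPKM columns was mapped to a library by its name.

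Counts were tested with edgeR 4.0.16 in R 4.3.3 (quasi-likelihood test on group alone after filterByExpr and TMM scaling), two-sided, adjusted by Benjamini-Hochberg over all genes tested and a threshold of 0.05. The SE was obtained by dividing the size of each log2 fold change by the root of its F statistic. Single shares and ratios were compared by exact two-sided permutation over 3 against 3 libraries, whose smallest p is 0.1. The code was tested on simulated counts. Replicate numbers were not taken as pairs, since no label ties them and the correlations of same-numbered libraries were −0.09, 0.03 and 0.02.

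The genes, role groups, pathway lists and marker lists were chosen with earlier results of these data known, so their counts are descriptions and no test was run on a list. Values in every library are given for each gene that passed, the 4 actins and, per role group, the gene of highest mean FPKM and the gene of largest log2 fold change among those that did not pass; of each pathway list the 4 genes of smallest p are named. Some genes are counted in the totals but not reported here by name. Mrtfa, Mrtfb, Ssh1 and markers outside the 3 most abundant of a list were named after their values were seen. Alternatives were DESeq2 1.42.0, other scaling, no filter, limma 3.58.1 on log2(FPKM + 1) and log2(FPKM + 0.1), a replicate block and leaving out each library.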

Additional observations from a re-analysis of the deposited data

How the results depend on the processing

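Fhl1 passed under every alternative run, and Actn1, Flnc and Cotl1 under all but limma on log2(FPKM + 1) without a filter, which by construction tested all 55401 genes and called 15 higher and 8 lower, with 1 and 0 of the 44 genes. Over all genes tested, 749 were higher in the Nf2-knockout libraries and 944 lower, and of the 44 genes 9 and 5. DESeq2 called 1252 higher and 1341 lower over all genes, and 13 and 5 of the 44. DESeq2's size factors in edgeR gave 780 and 884, and 10 and 5 of the 44. Library sizes alone gave 1130 and 707, and 12 and 3 of the 44, with Cnn3 and Tagln2 no longer passing. With no filter on low counts edgeR called 601 and 736, and 7 and 3 of the 44, with Cnn2, Cnn3, Fhl2 and Tagln2 no longer passing. Limma on filtered log2(FPKM + 1) called 960 and 577, and on log2(FPKM + 0.1) 974 and 584, with 11 and 3 of the 44 in both. Cnn3 and Tagln2 passed in neither. With the replicate number as a block, 389 were higher and 534 lower, and of the 44 genes 5 were higher and 4 lower, with Acta2, Actn4, Cald1, Cnn2 and Cnn3 no longer passing; the numbers are not stated to pair libraries. Leaving out 1 library gave 309 to 574 higher and 320 to 706 lower over all genes, and 4 to 8 higher and 1 to 4 lower of the 44, with a median log2 fold change of the 44 between 0.085 (without Nf2-knockout replicate 3) and 0.28. The cause of these shifts was not tested.

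The sign turned for genes that did not pass: for Cnn1 with library sizes alone (0.034), and for Srf with library sizes alone (0.064), limma on log2(FPKM + 1) with and without a filter (0.054 in each) and log2(FPKM + 0.1) (0.058). Over the fits that left out 1 library the log2 fold change spanned 0 for Actb (−0.044 to 0.074), Actg2 (−0.47 to 1.00), Myl9 (−0.18 to 1.05), Myh11 (−1.14 to 0.86), Cnn1 (−0.85 to 0.28), Lmod1 (−0.42 to 0.77), Zyx (−0.045 to 0.24), Pdlim7 (−0.017 to 0.24), Csrp1 (−0.0068 to 0.13) and Srf (−0.087 to 0.089). The Acta2 share of actin FPKM stayed 5.40 to 9.83 points higher in the Nf2-knockout libraries. In the 200 bases before the start alone, 7 of the 37 genes with a promoter entry held a CArG box (18.9%, against 1.32% of all genes with an entry). A TEAD core was held by 12 (32.4%, against 11.6%). Counting limits Myh11, Actg2, Lmod1 and Cnn1 most, the 4 of the 44 with the fewest counts.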
